A study of Rattus norvegicus with 56 samples.

Results

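Gene expression was compared between the hippocampus and the parietal cortex of 4 young rats that had received sham stimulation. These tissues gave 8 of the 56 arrays of the series. They were chosen by their labels, as the first array made from each region of each young sham animal, and a hippocampus and a cortex array with the same number came from the same rat. The animals were male Long-Evans rats aged 6 to 7 months, and the labels name no altered gene or transgene. A sham animal went through the session with the magnetic coil kept away from the head, after light isoflurane anaesthesia and sedation with dexmedetomidine, which Antisedan then reversed. Neocortex and dorsal hippocampus below the coil centre were dissected fresh 48 h later, under deep isoflurane. The animals are therefore sedated and handled controls, not untouched ones. Other groups serve for comparison, all of the same strain, sex and sedation: young rats given intermittent theta burst stimulation (iTBS), and sham rats aged 26 to 27 months that a water maze had classed as unimpaired or impaired. Each sample is a mixture of all the cells of its tissue, in which fewer cells of a type and less RNA per cell cannot be told apart.

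The hippocampus is an older, simpler cortex in which dentate granule cells excite CA3 pyramidal cells, which in turn excite CA1 pyramidal cells. It is known for its part in spatial memory and for the continued birth of granule cells in the adult dentate gyrus. The parietal neocortex is built of layers, with pyramidal cells of the upper layers projecting to other cortical areas and those of the deep layers projecting to subcortical targets. Both tissues hold the same broad kinds of cells, namely excitatory neurons, inhibitory interneurons, glia and vessels.

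Levels are given as log2 signal on a scale where the mean of the non-control probes of each array is 0, so a level of 5 lies 5 doublings above that mean. Differences are hippocampus minus cortex within an animal, on the same log2 scale, and are given as mean ± SE over 4 animals. The SE is the moderated one of limma, which draws the spread of each probe toward that of all probes. For a gene that varied much between animals it is smaller than the SE of the 4 values alone. A gene was called different at a Benjamini-Hochberg adjusted p under 0.05 in limma, fitted over all probes that were well above background on at least 4 of the 8 arrays. Between 65.7 and 67.1% of probes were well above background on the hippocampus arrays and between 63.7 and 65.7% on the cortex arrays, and no spot was saturated. No glass slide held first arrays of both regions of these animals, so slide and region cannot be told apart in the 8 arrays. For animals 1 and 2 the hippocampus and cortex arrays also differed in scan day and scanner, which cannot be told apart from region there. The arrays of animals 3 and 4 shared 1 scan day and scanner. Over the 48 first arrays of the series, slide and region crossed on 2 of the 7 slides, and a fit with slide as a term rested on those crossings. Each crossing was a single array. The cortex of young sham animal 3 lay among hippocampus arrays, and the hippocampus of an aged stimulated rat among cortex arrays. Calls lost and signs turned in that fit hang on these arrays. That fit had no animal block. Animal entered as a correlation, estimated at 0.011, and the spread was pooled over all groups, aged and stimulated rats included. A call lost in it can thus also reflect the pairing or the spread. Repeat arrays of the RNA of animal 3 offered a direct reading, since they placed its hippocampus and cortex side by side on the same slide, on each of 2 slides. Values from these sources are given beside the results they touch.

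About 1 of every 4 genes was called different between the tissues, a share that rested on all 4 animals. Of 30004 probes tested, 7627 were called (25.4%), with 4074 toward the hippocampus (13.6%) and 3553 toward the cortex (11.8%). The count was 2260 without animal 1, 2012 without animal 2, 3300 without animal 3 and 9637 without animal 4. With 1 probe chosen for each gene, 3219 of 12228 genes were called (26.3%). The hippocampus had the higher level in 1865 of them (15.3%), the cortex in 1354 (11.1%). These 2 shares are the reference for the counts of every gene list below. The direction was shared by 4 of 4 animals for 1863 of the former and 1351 of the latter. The 4 hippocampus and 4 cortex values did not overlap in 4187 of the genes tested (34.2%). Most differences were modest: 575 genes exceeded 2-fold in favour of the hippocampus and 398 in favour of the cortex, and 22 and 16 genes exceeded 16-fold. The median difference of all genes tested was 0.06. Which direction held more calls depended on scaling, with 53.4% of the called probes higher in hippocampus here and 42.4% when arrays were scaled to their 75th percentile. A fit with slide as a term over 48 arrays called 4008 probes, among them 3085 of the 7627. On the same-slide repeats of animal 3, an animal already among the 4, 98.4 and 98.0% of the genes higher in hippocampus and 98.3 and 99.3% of those higher in cortex had the same sign.

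The identity of the dissected tissues was checked first with the markers Klk8, Neurod6 and Zbtb20. Klk8 encodes neuropsin, a secreted serine protease made by hippocampal pyramidal neurons. Its levels were 5.96, 6.17, 6.20 and 6.13 in the hippocampus of animals 1 to 4 and -2.01, -1.76, -1.14 and -1.04 in their cortex. The groups lay far apart and each was tight, and the difference of 7.60 ± 0.17 (limma adjusted p = 0.000334, higher in 4 of 4 animals) was the largest among genes measured in both regions. Neurod6, a transcription factor of excitatory forebrain neurons, was at 6.93, 7.18, 7.08 and 7.26 in hippocampus and at 4.23, 4.61, 4.89 and 5.25 in cortex. It was thus clearly present in cortex as well, and differed by 2.37 ± 0.15 (limma adjusted p = 0.00174). Zbtb20, a zinc finger repressor required for the identity of hippocampal neurons, was at 2.02, 1.88, 2.32 and 1.55 in hippocampus and 1.01, 0.79, 0.60 and 1.05 in cortex. These groups did not overlap either, although the gap was narrow, at 1.08 ± 0.21 (limma adjusted p = 0.0224). The Zbtb20 difference was 0.89 and not called with slide as a term (adjusted p = 0.12), while on the same-slide repeats of animal 3 it was 1.63 and 1.72. All 3 markers were thus higher in the tissue labelled hippocampus, and the groups overlapped for none of them. Of the 5 hippocampus-wide markers listed, 4 were called higher in hippocampus, beside 15.3% of all genes. The fourth was Nr3c2, and Lhx2 was not called.

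**Figure D1:**
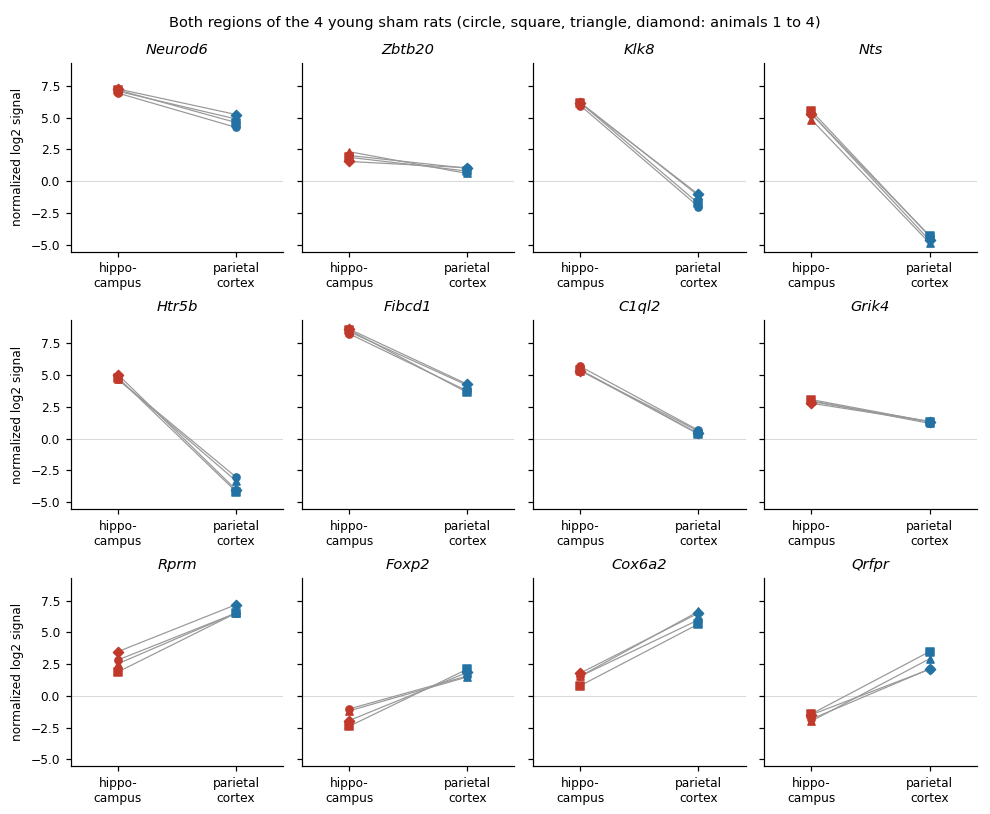
Levels of 12 genes (log2 signal, array mean at 0) in hippocampus and cortex, with a line joining the samples of each of the 4 animals. Klk8, Nts and Htr5b lie far apart between regions, Neurod6 is well above the array mean in both, and Rprm, Foxp2, Cox6a2 and Qrfpr are higher in the cortex of every animal.

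Neurod6 belongs to the NeuroD family, whose members bind the E-box CAGATG. The stretch around its transcription start is shown because it encodes one of the marker transcription factors and itself holds that motif, with the matches in capitals, beside that of Nts, the gene with the largest region gap. The sequences are from RefSeq (GRCr8), minus strand, at chr4:86180106-86180405 and chr7:39460839-39461138, and span 250 bases before to 50 bases after the start.
Neurod6: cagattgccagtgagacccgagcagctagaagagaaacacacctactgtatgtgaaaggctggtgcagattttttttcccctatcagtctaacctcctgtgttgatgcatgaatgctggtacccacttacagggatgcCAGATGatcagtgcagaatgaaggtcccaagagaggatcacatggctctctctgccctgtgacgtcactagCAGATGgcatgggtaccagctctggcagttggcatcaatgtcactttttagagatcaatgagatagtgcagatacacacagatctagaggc
Nts: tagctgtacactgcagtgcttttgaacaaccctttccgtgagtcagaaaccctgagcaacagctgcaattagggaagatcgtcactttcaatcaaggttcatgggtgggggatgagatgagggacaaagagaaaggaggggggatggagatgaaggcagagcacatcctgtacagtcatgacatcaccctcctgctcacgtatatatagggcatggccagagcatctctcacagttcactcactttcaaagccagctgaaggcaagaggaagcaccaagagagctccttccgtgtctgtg
The window of Neurod6 held CAGATG 2 times and that of Nts held neither CAGATG nor its reverse complement CATCTG. Searched on both strands, the motif was in 5565 of 33469 promoter windows of this length (16.63%). Among the 15 genes with the largest differences or bounds toward the hippocampus, 12 had a window and 3 of these held it (Or2b11, Nhlh1 and Ntf3). Among the corresponding 15 genes toward the cortex, 10 had a window and 1 held it (Mrln). A gene counted here if any of its windows held the motif, whereas 16.63% is a share of single windows, so the units differ.

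Some genes were measurable in one tissue and not in the other. On 4 of 4 hippocampus arrays and 0 of 4 cortex arrays 93 genes were well above background, against 25 genes with the opposite pattern. Such genes passed the filter only through the region where they were high, so their p-values in the 8 arrays are not given. Their calls still enter the counts of called genes and of the lists, 86 of the 93 and 25 of the 25. In those counts they are no independent support. Genes measured on all arrays of a region and few of the other passed in the same way. The differences of the latter are given as measured, not as bounds. For such a gene the difference is a bound, set by the dimmest signal that counted as measured on the other arrays. Nts encodes neurotensin, a peptide transmitter. Its hippocampus levels were 5.28, 5.53, 4.84 and 5.30, while its cortex signals of -4.29, -4.35, -4.87 and -4.66 were not well above background. This made it at least 304-fold higher in hippocampus (measured means 5.24 and -4.54). Htr5b, a serotonin receptor, stood at 4.66, 4.79, 4.67 and 5.04 in hippocampus. Its cortex signals of -3.04, -4.18, -3.34 and -4.04 were not well above background either, giving at least 223-fold (measured means 4.79 and -3.65). The next bounds toward the hippocampus were at least 33.6-fold for Cxcr1, a chemokine receptor, 25.9-fold for Chst9 and 19.1-fold for Ndst4, which both encode enzymes that sulfate glycans. Toward the cortex the bounds were smaller, at least 9.73-fold for Cd200r1, the receptor of CD200, 8.18-fold for Ahrr, the repressor of the aryl hydrocarbon receptor, 7.99-fold for Cyp11b2, 7.74-fold for Vtcn1 and 5.68-fold for Mrln.

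Among genes measured in both tissues, a neurotrophin had one of the wide gaps toward the hippocampus. Ntf3, encoding neurotrophin-3, was at 3.07, 3.56, 3.06 and 2.67 against -1.36, -1.42, -2.12 and -1.54, a difference of 4.70 ± 0.19 (limma adjusted p = 0.000777). The groups did not come near overlap. Smaller differences in the same direction were found for Bdnf, the activity-regulated neurotrophin (1.18), and for Ngfr, the low-affinity neurotrophin receptor (1.03), whereas Ntrk2 and Ntrk3, the receptors of brain-derived neurotrophic factor and neurotrophin-3, were not called (-0.04 and 0.04). Of 32 growth factors, their receptors and binding proteins tested, 12 were higher in hippocampus, among them Gdf10 (1.81), and 7 in cortex, led by Vegfc, a lymphatic growth factor (-1.78), Igfbp6 (-1.64), Nrg1, an ErbB ligand (-1.56), and Bmp2 (-1.15). The median of the list was 0.07, beside 0.06 over all genes. Ngfr and Igfbp6 lost their calls with slide as a term (adjusted p = 0.073 and 0.15).

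Other genes with wide measured gaps toward the hippocampus were Ccdc27 (5.36), Lrrc10b (5.31), Or2b11, a member of the olfactory receptor family (5.02), C1ql2 (4.96), Nhlh1, a basic helix-loop-helix factor (4.73), Cabp7, a calcium-binding protein (4.69) and Fibcd1 (4.50). Toward the cortex the widest was Cyp11b1, encoding steroid 11-beta-hydroxylase. Its cortex levels of 4.29, 4.34, 4.48 and 4.42 hardly varied, while its hippocampus levels of -0.73, -3.95, -1.68 and 0.17 were scattered near background, and the difference was -5.93 ± 0.68 (limma adjusted p = 0.00618). Cyp11b1 and Cyp11b2 are near-identical paralogs, so their probes may share signal and each value is uncertain. Cox6a2, a tissue-restricted subunit of cytochrome c oxidase, was at 5.99, 5.66, 6.65 and 6.52 in cortex and 1.55, 0.81, 1.56 and 1.80 in hippocampus, a difference of -4.78 ± 0.13 (limma adjusted p = 0.000452). Both genes separated the tissues in every animal. Olr59, another olfactory receptor (-4.94), Dpp4, a peptidase that cleaves peptide hormones (-4.56), Qrfpr (-4.33), Rprm (-4.0), Tnn, an extracellular matrix tenascin (-3.61), Trim54 (-3.59) and Rln1, a relaxin (-3.40), were also among the widest.

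Markers of the hippocampal fields were mostly, though not all, higher in hippocampus. For CA1 this held for 4 of 6 tested, with a median of 1.68. Fibcd1, a chitin-binding membrane protein of CA1 cells, was at 8.26, 8.55, 8.42 and 8.62 in hippocampus and 3.75, 3.63, 4.19 and 4.28 in cortex. Its groups were well separated on this probe, with a difference of 4.50, and its 2 other probes tested differed by less (2.98 and 3.03). Pou3f1 (2.26), Wfs1 (2.00) and Man1a1 (1.37) went the same way, Mpped1 was not called (-0.25), and Spink8 was higher in cortex (-0.75), a call that was lost with slide as a term (adjusted p = 0.13). For CA2 it held for 3 of 5 (Sostdc1, 2.15, Amigo2, 1.22, and Rgs14, a regulator of G protein signalling that restrains plasticity in CA2, 1.18), with a median of 1.18. Sostdc1 is also made by choroid plexus and is taken up again with that tissue. For CA3, Grik4, a high-affinity kainate receptor subunit (1.63), and Bok (1.28) were higher in hippocampus and Socs2 (-0.88) in cortex, of 6 tested with a median of 0.76. That median was 0.32 with normexp, a background correction run here with quantile scaling, and 0.15 in animal 3.

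Dentate gyrus markers were higher in hippocampus for 4 of 6 tested, with a median of 1.02. C1ql2, a synaptic organizer that granule cells secrete from their mossy fibres, was at 5.68, 5.42, 5.35 and 5.36 in hippocampus and 0.65, 0.34, 0.58 and 0.40 in cortex. The difference of 4.96 ± 0.10 (limma adjusted p = 0.000282) dwarfed the spread in either tissue. Plk5 (1.45) and Trpc6 (0.59) were also higher. Prox1, the transcription factor that specifies granule cells, was not called (-0.22 ± 0.13, limma adjusted p = 0.265), with 6.41, 6.85, 6.23 and 6.33 in hippocampus and 6.50, 6.91, 6.34 and 6.95 in cortex, values that overlapped. On the same-slide repeats of animal 3 it was at 0.11 and 0.23, so its direction is uncertain. Among the 10 neurogenesis genes tested 3 were higher in hippocampus (Igfbpl1, 3.45, with 2 of 4 cortex signals well above background, Nes, the intermediate filament nestin, 0.88, and Neurod1, 0.86), and 2 in cortex, Dcx, which encodes doublecortin of migrating neurons (-1.03), and Hopx (-0.97). The calls of Igfbpl1 and Nes were lost with slide as a term (adjusted p = 0.13 and 0.16), and the median of the list, 0.02, changed sign between scalings.

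Markers of the neocortical layers were less uniform, and deep-layer genes carried the widest cortical gaps. In layer 6, 4 of 10 genes tested were higher in cortex and 0 in hippocampus, with a median of -1.04 that was -0.43 with normexp. Rprm, a p53 target known as a marker of corticothalamic cells, was at 6.52, 6.52, 6.53 and 7.19 in cortex and 2.84, 1.89, 2.54 and 3.49 in hippocampus, a difference of -4.0 ± 0.19 (limma adjusted p = 0.000909). Foxp2, a transcription factor of layer 6, was at 1.57, 2.11, 1.49 and 1.85 in cortex and -1.02, -2.39, -1.18 and -1.94 in hippocampus (-3.39 ± 0.36, limma adjusted p = 0.00526). Each of these genes was higher in the cortex of every animal by a wide margin. Ccn2 (-1.54) and Nxph4 (-1.10, lost with slide as a term, adjusted p = 0.65) were also called, and Tle4 (0.08), Ntsr1 (0.05) and Osr1 (0.02) were not. In layer 5, 3 of 8 were higher in cortex and 2 in hippocampus. Qrfpr, a receptor for the neuropeptide QRFP, was at 2.12, 3.49, 2.92 and 2.10 in cortex and at -1.82, -1.42, -1.98 and -1.48 in hippocampus (-4.33 ± 0.27, limma adjusted p = 0.00174). Tcerg1l (-3.45, with 2 of 4 hippocampus signals well above background) and Npr3, the clearance receptor of natriuretic peptides (-2.50, lost likewise, adjusted p = 0.58), went with it. Bcl11b, whose product CTIP2 marks subcerebral projection neurons but also CA1 and granule cells, went the other way (1.66), as did Trib2 (0.51), and Fezf2 was not called (-0.35, limma adjusted p = 0.082).

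Upper-layer markers were called in both directions, with a median of -0.07. Of 8 tested, Lamp5 (-1.57), Rorb, a nuclear receptor of layer 4 (-1.10), Whrn (-0.77) and Cux2 (-0.64) were higher in cortex, and Scnn1a (0.79), Otof (0.72) and Rasgrf2 (0.69) in hippocampus. The calls of Lamp5, Cux2, Scnn1a, Otof and Rasgrf2 were lost with slide as a term (adjusted p from 0.081 for Lamp5 to 0.85 for Cux2). A second probe of Otof had the opposite, called difference (-1.42), so its direction is uncertain. Among markers of cortical projection neurons in general, Tbr1 was higher in cortex (-1.31) and Neurod2 in hippocampus (1.00), while Slc17a7, the vesicular glutamate transporter that both tissues use, was not called (0.63).

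**Figure D2:**
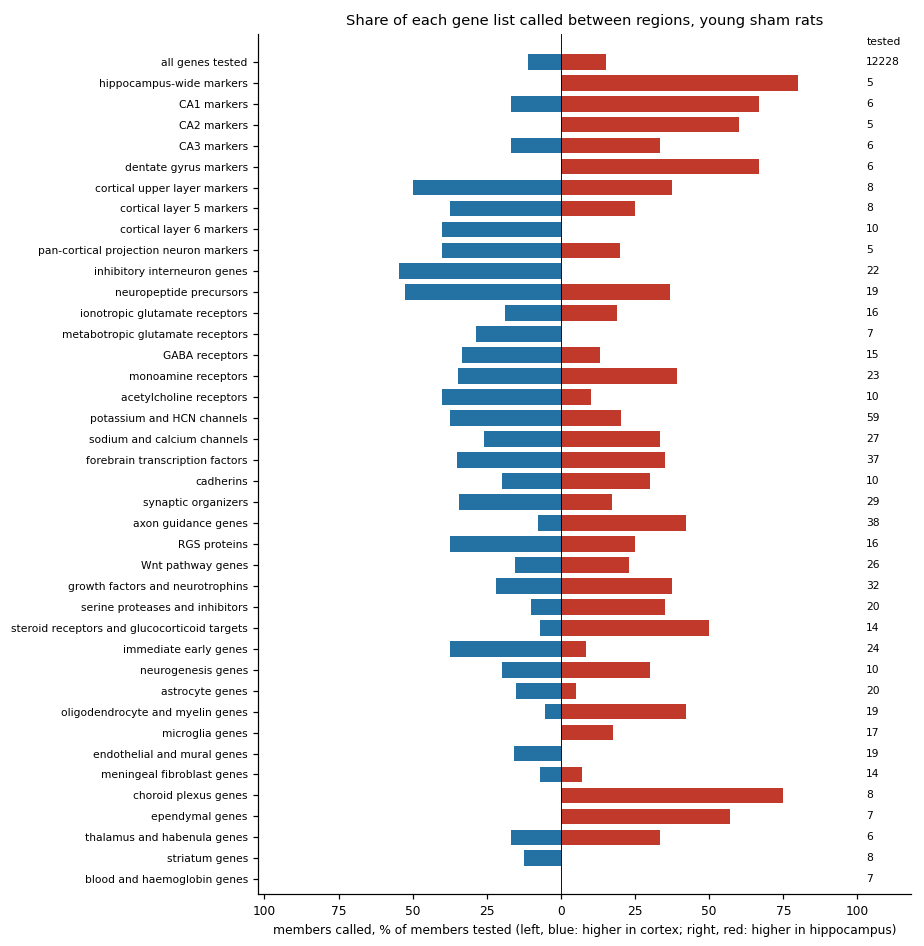
Share of the tested members of 39 gene lists that were called higher in hippocampus (right) or higher in cortex (left), in percent, with all 12228 genes tested as the reference. Interneuron genes were called toward the cortex alone (12 of 22), choroid plexus genes toward the hippocampus alone (6 of 8). Calls of genes well above background in a single region are counted too.

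Transcription factors of the forebrain were called often, 13 of 37 toward each tissue. Beside Neurod6 (2.37) and Pou3f1 (2.26), the hippocampal side held Bcl11b (1.66), Zbtb18 (1.19), Foxo1 (1.04), Emx2, which patterns the medial pallium (0.67), and Pax6 (0.58, lost with slide as a term, adjusted p = 0.14, and at -0.12 on 1 of the same-slide repeats of animal 3). Lhx9, a LIM homeodomain factor, was well above background on 4 hippocampus arrays (1.49, 1.89, 1.66 and 1.08) and 1 cortex array (0.25 in animal 3, against -4.92, -5.06 and -4.96 in animals 1, 2 and 4). The size of its difference, 5.21 ± 0.98, thus varied with the cortex sample. Most of its cortex signals were not well above background, so its p-value is not given. The cortical side held Foxp2 (-3.39), Tshz3 (-2.17), Pou3f2, also called Brn2 (-1.52), Nr2f1, or COUP-TFI, which sets cortical area identity (-1.36), Satb1 (-1.14) and Foxp1 (-1.07). The median of the list was -0.14, but 0.01 at the other end of the scalings tried.

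Inhibitory interneuron genes were called in a single direction. Of 22 tested, 12 were higher in cortex and 0 in hippocampus, beside 11.1% of all genes higher in cortex, and the median was -0.55. Vip, the peptide of interneurons that inhibit other interneurons, was at 6.48, 6.85, 6.30 and 6.01 in cortex and 4.62, 4.45, 4.10 and 4.52 in hippocampus (-1.99 ± 0.17, limma adjusted p = 0.0033). Sst, encoding somatostatin, was at 9.17, 9.30, 9.46 and 9.43 in cortex and 7.83, 8.05, 8.52 and 8.59 in hippocampus (-1.09 ± 0.12, limma adjusted p = 0.00599). Neither gene overlapped between tissues. Crh, corticotropin-releasing hormone (-2.05), Cort, cortistatin (-1.83), Tac1, the precursor of substance P (-1.47), Cck (-1.11), Pvalb, the calcium buffer of fast-spiking cells (-0.90), Reln (-0.80), Npy (-0.72), Htr3a (-0.72), Gad1, an enzyme of GABA synthesis (-0.55), and Dlx1 (-0.54) completed the group. Genes that all GABA neurons share were less clear. Gad2, the other synthesis enzyme (-0.10), and Slc32a1, the vesicular GABA transporter (0.05), were not called, and a second probe of Gad1 had a small opposite difference (0.14). Lhx6, another member of the list, was not called either (0.27). The list counted 10 toward the cortex and 0 toward the hippocampus with slide as a term, without Reln and Htr3a (adjusted p = 0.14 and 0.32).

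Neuropeptide precursors overlap that list in Sst, Npy, Vip, Cck, Crh, Cort and Tac1. Of 19 tested, 10 were higher in cortex and 7 in hippocampus, beside 11.1% and 15.3% of all genes, with a median of -0.72. Besides Nts, the hippocampal side held Nmb, neuromedin B, at 5.33, 4.95, 5.07 and 4.67 in hippocampus and 2.03, 2.05, 1.65 and 1.76 in cortex (3.13 ± 0.13, limma adjusted p = 0.000777). The separation of Nmb was wide in each animal. Trh (2.78, well above background on 2 of 4 cortex arrays), Cartpt (1.90), Gal (0.99), Scg2 (0.95) and Tac3 (0.69) were also higher there, though Cartpt was at 0.19 with slide as a term (adjusted p = 0.92) and Gal, Scg2 and Tac3 were not called then either (adjusted p = 0.56, 0.13 and 0.14). Penk, proenkephalin (-0.98), Adcyap1, encoding PACAP (-0.80), and Vgf (-0.62) were higher in cortex, and Pdyn, prodynorphin, was not called (0.13). Penk was not called with slide as a term (adjusted p = 0.081) and Adcyap1 turned to 0.11.

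Receptors for glutamate were called in opposite directions within the family. Of 16 ionotropic subunits tested, Grik4 (1.63), Gria1 (1.48) and Grin2a (0.43) were higher in hippocampus and Gria4 (-1.20), Grin3a (-1.0) and Gria3 (-0.82) in cortex, and the list's median, -0.01, changed sign with scaling. Gria1, an AMPA receptor subunit tied to long-term potentiation, was at 5.87, 5.89, 6.04 and 6.03 in hippocampus and 4.35, 4.22, 4.27 and 5.05 in cortex (limma adjusted p = 0.00522). Gria4, a subunit enriched in fast-spiking interneurons, was at 5.50, 5.67, 5.35 and 5.82 in hippocampus and 6.44, 7.05, 6.85 and 6.81 in cortex (limma adjusted p = 0.00601). The AMPA receptor genes thus differed in opposite directions in the same animals. Gria2, which makes the receptor impermeable to calcium (0.12), and Grin1, the obligatory NMDA subunit (0.20), were not called. The calls of Grin2a and Grin3a were lost with slide as a term (adjusted p = 0.69 and 0.31). Of 7 metabotropic receptors, Grm8 (-2.01) and Grm4 (-0.73), which reduce transmitter release, were higher in cortex, Grm4 not with slide as a term (adjusted p = 0.46), and none was higher in hippocampus.

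GABA receptor subunits were also called in both directions. Gabra5, a subunit of extrasynaptic receptors in hippocampal pyramidal cells, was at 3.39, 3.47, 3.21 and 3.05 in hippocampus and 1.34, 1.21, 0.90 and 1.34 in cortex (2.08 ± 0.13, limma adjusted p = 0.00174). Gabra2 was higher there too (0.92). Toward the cortex went, among others, Gabra3 (-1.51), Gabrg3 (-1.46), Gabrd, of tonic receptors (-0.89), and Gabbr2 (-0.85). In all 2 of 15 tested were higher in hippocampus and 5 in cortex. Gabbr1 (0.13), a subunit that GABA-B receptors need, was not called. The median of the list was 0.01 and changed sign with scaling, and Gabra3 was lost with slide as a term (adjusted p = 0.1).

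Receptors of the monoamines were called in both directions, with a median of -0.19. Of 23 tested, 9 were higher in hippocampus and 8 in cortex, beside 15.3% and 11.1% of all genes. Beside Htr5b, the hippocampal side was led by Htr1a, an inhibitory serotonin receptor, at 0.99, 0.91, 0.83 and 0.79 in hippocampus and -1.97, -2.17, -2.64 and -2.10 in cortex (3.1 ± 0.13, limma adjusted p = 0.000777). Htr1b (2.22), Adra2b (1.01) and Htr2c (0.87) were also higher there, as was Htr4 (2.61), whose cortex signal was well above background on 1 of 4 arrays. The cortical side was led by Adra1b, an adrenergic receptor, at 5.42, 5.32, 5.87 and 5.55 in cortex and 2.55, 2.14, 2.76 and 2.79 in hippocampus (-2.98 ± 0.11, limma adjusted p = 0.000733). Htr2a, the excitatory serotonin receptor of layer 5 pyramidal cells (-1.66), Adra2a (-1.31) and Htr1f (-1.07) were next, but Htr1f turned to 0.25 with slide as a term. None of the dopamine receptors Drd1, Drd2 and Drd4 was called, and Drd5 was higher in hippocampus (0.66). Htr2c and Drd5 were not called with slide as a term (adjusted p = 0.41 and 0.058). Adra2a, Adra2b and Adra2c are receptors of the sedative dexmedetomidine, which every animal of the series received.

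For acetylcholine, 1 of 10 receptor genes tested was higher in hippocampus and 4 in cortex (median -0.37). The hippocampal one was Chrna7, the homomeric nicotinic receptor (0.81). Chrna4 (-2.39), Chrna3 (-2.03), Chrm4 (-0.68) and Chrm2 (-0.51) were higher in cortex. Chrm1, the main muscarinic receptor of both tissues, was not called (0.30). With slide as a term Chrna7, Chrna3, Chrm4 and Chrm2 were not called (adjusted p = 0.061, 0.99, 0.22 and 0.46), so that Chrna4 alone kept its call (adjusted p = 0.035).

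**Figure D3:**
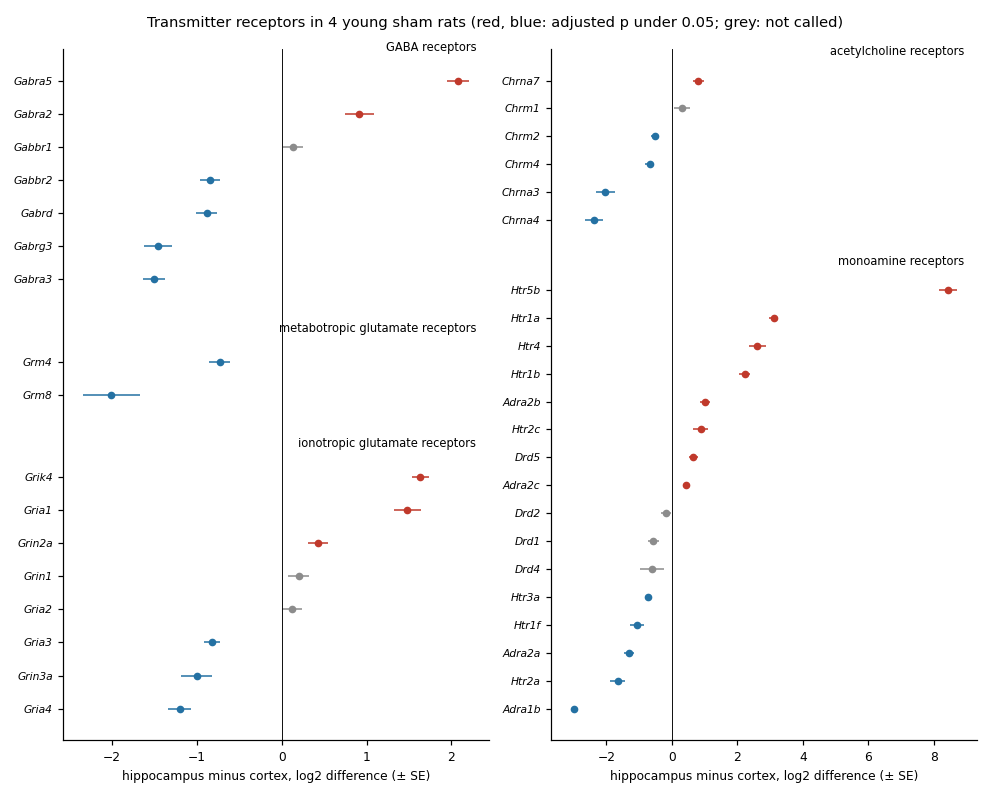
Hippocampus minus cortex difference (log2, mean ± moderated SE of limma, n = 4 animals) of the receptor genes for glutamate, GABA, monoamines and acetylcholine that the text names, with called genes marked. Members of 1 family lie on both sides of 0, from Htr5b at 8.44 (its cortex signals not above background, so this is no bound) to Adra1b at -2.98.

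Ion channels gave the longest list, with more calls toward the cortex. Of 59 potassium and HCN channel genes tested, 22 were higher in cortex and 12 in hippocampus, beside 11.1% and 15.3% of all genes, with a median of -0.32. Kcnf1, a silent modulatory subunit, was at 0.95, 1.25, 1.61 and 2.19 in cortex and -1.52, -3.70, -1.52 and -0.62 in hippocampus (-3.34 ± 0.43, limma adjusted p = 0.00834). It was followed by Kcns1, another silent subunit (-2.40), Kcnt1, a sodium-activated channel (-2.09), and Kcnh5 (-2.01, with 1 of 4 hippocampus signals well above background), and the smaller differences included Kcnc1 (-0.77) and Kcnc2 (-0.89), the Kv3 channels of fast-spiking interneurons. Kcng2 was the widest in the other direction (2.15 ± 0.10, limma adjusted p = 0.000958), at 5.84, 6.02, 6.20 and 5.99 in hippocampus and 3.84, 3.73, 3.92 and 3.97 in cortex. Kcns2 (1.46), Kcnj6, the G protein-gated GIRK2 (1.18), Kcnip2 (1.04) and Kcnd2, the A-type Kv4.2 (0.72), were also higher in hippocampus. Of the HCN channels, which carry the pacemaker current, those named here were not called (Hcn2 0.17, Hcn3 -0.49 and Hcn4 0.87). Of 27 sodium and calcium channel genes, 9 were higher in hippocampus, with Cacna1h, a T-type channel (1.69), Scn3b (1.57), Cacng8 (1.29) and Cacna2d3 (1.14) in front, and 7 in cortex, with Scn1a, the Nav1.1 of interneurons (-1.29), and Cacnb4 (-1.24) in front. Their median of 0.09 changed sign with scaling. Of the channels named here, Kcnc1 and Kcnip2 lost their calls with slide as a term (adjusted p = 0.1 and 0.059).

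Genes of axon guidance leaned to the hippocampus, where 16 of 38 tested were higher against 3 in cortex, beside 15.3% and 11.1% of all genes, with a median of 0.49 that was 0.28 with normexp. Epha7, an ephrin receptor, was at 4.16, 4.44, 4.03 and 4.05 in hippocampus and 1.77, 2.12, 1.65 and 2.23 in cortex (2.23 ± 0.13, limma adjusted p = 0.00153). Sema5a (2.05), Nrp1, a semaphorin receptor (1.70), Efnb3 (1.25), the netrin receptors Unc5a (1.17), Unc5b (1.05) and Unc5c (0.92), and Robo1 (1.04) were also higher there. Nrp2, the other neuropilin, was not well above background in cortex, so that its hippocampal signal was higher by at least 1.54-fold, a call lost with slide as a term (adjusted p = 0.32). The secreted repellent Sema3a, a ligand of Nrp1, went the other way and far, at 1.47, 1.17, 1.38 and 2.35 in cortex and -2.54, -3.28, -2.14 and -1.77 in hippocampus (-4.02 ± 0.17, limma adjusted p = 0.000777), with 2 of the 4 hippocampus signals well above background. Ligand and receptor thus had opposite directions. Efna5 (-2.39) and Ephb6 (-0.88) were the other genes higher in cortex, Efna5 not with slide as a term (adjusted p = 0.38). In hippocampus 1 of 4 Efna5 signals was well above background. With the 75th percentile the list counted 13 toward the hippocampus and 5 toward the cortex.

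Molecules that organize synapses and adhesion were divided. Among 29 synaptic organizers 10 were higher in cortex, from Cbln2 (-2.26), Nxph3 (-1.36), Nxph4 (-1.10) and Flrt2 (-1.08) to the neurexins Nrxn2 (-0.66) and Nrxn3 (-0.68), and 5 in hippocampus, with C1ql2 far ahead of Slitrk6 (1.17), Cbln4 (0.85) and Nptx1 (0.65). The median was -0.36. Nxph3 turned to 0.45 with slide as a term, and Nxph4, Slitrk6 and Cbln4 were not called (adjusted p = 0.65, 0.94 and 0.12). Of 10 classical and related cadherins, Cdh9, which acts at mossy fibre synapses (1.89), Cdh8 (0.90) and Cdh11 (0.88) were higher in hippocampus, and Cdh7 (-2.27) and Cdh22 (-0.79) in cortex, with a median of 0.00 that changed sign with scaling. Among 16 regulators of G protein signalling, 4 were higher in hippocampus, including Rgs14 (1.18) and Rgs11 (1.13), and 6 in cortex, led by Rgs4 (-2.36) and Rgs2 (-0.88). Rgs11 and Rgs4 lost their calls with slide as a term (adjusted p = 0.11 and 0.07).

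Klk8 was not the only secreted protease that differed. Klk7, a neighbouring kallikrein, was well above background in hippocampus alone (-1.01, -0.49, -1.43 and -1.54) and at least 3.72-fold higher there. Klk6, a protease of oligodendrocytes (1.14), Prss12, or neurotrypsin, which cleaves agrin at synapses (1.31), and the protease inhibitor Cst6 (1.53) were also higher. In all 7 of 20 members of the list were higher in hippocampus and 2 in cortex (median 0.52), beside 15.3% and 11.1% of all genes. The Klk6 difference was 0.52 with slide as a term and was not called (adjusted p = 0.38). In the Wnt pathway, 6 of 26 were higher in hippocampus and 4 in cortex, beside 15.3% and 11.1% of all genes (median 0.32, but 0.12 with normexp). Wnt4 was at 4.66, 4.65, 4.40 and 4.54 in hippocampus and 2.33, 2.18, 2.47 and 2.37 in cortex (2.23 ± 0.12, limma adjusted p = 0.00125). Sfrp2, a secreted Wnt inhibitor (1.65), Wnt2b (1.60) and the receptor Fzd1 (1.04) were with it, and Wnt10a (-0.97) and the receptor Fzd3 (-0.68) opposite. Wnt2b was lost with slide as a term (adjusted p = 0.22).

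Steroid signalling leaned to the hippocampus, 7 of 14 genes against 1, beside 15.3% and 11.1% of all genes, with a median of 0.59 that was 0.36 with normexp. Nr3c2 encodes the mineralocorticoid receptor, which binds corticosterone with high affinity and is known from hippocampal neurons. It was at 5.93, 6.23, 5.84 and 5.77 in hippocampus and 3.95, 4.15, 3.82 and 3.58 in cortex, a difference of 2.07 ± 0.09 (limma adjusted p = 0.000823) that varied little between animals. Nr3c1, the glucocorticoid receptor, was not called (0.21 ± 0.10, limma adjusted p = 0.195), and 1 of its 2 other probes had the opposite sign (-0.0045). Fkbp5, a chaperone induced by glucocorticoids (0.89), Sgk1 (0.66), Hsd11b2 (0.68, well above background on 1 of 4 cortex arrays), Cyp7b1, which hydroxylates neurosteroids (0.91), and Srd5a1, or 5-alpha-reductase (0.70), were higher in hippocampus, and Pgr, the progesterone receptor, in cortex (-1.20). Tsc22d3, Per1 and Klf9, other targets of glucocorticoids, were not called (0.10, 0.41 and 0.75). Sgk1, Hsd11b2 and Srd5a1 were not called with slide as a term (adjusted p = 0.79, 0.82 and 0.37), while Nr3c2 stayed at 1.99. On 1 of the same-slide repeats of animal 3 Hsd11b2 was at -0.18.

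Immediate early genes, transcribed within minutes of neuronal activity, were more often higher in cortex. Of 24 tested, 9 were higher in cortex and 2 in hippocampus, beside 11.1% and 15.3% of all genes, and the median was -0.33. Fos was at 1.22, 3.20, 2.64 and 0.74 in cortex and 0.38, 0.25, 0.42 and 0.06 in hippocampus (-1.67 ± 0.42, limma adjusted p = 0.0436). The cortex of animals 2 and 3 was high, that of animals 1 and 4 close to the hippocampus, so the size of the difference rested on the animal. Npas4 (-2.08), Egr2 (-1.58), Dusp1 (-1.14), Egr4 (-1.09), Fosb (-0.87), Homer1 (-0.83), Egr1 (-0.78) and Nr4a1 (-0.44) went with it. Egr2 differed by -0.06 in animal 4. Arc (-0.19), Junb (-0.30) and Egr3 (0.19) were not called, while Bdnf (1.18) and Nr4a3 (1.17) were higher in hippocampus. The list counted 2 toward each tissue with slide as a term, and Npas4, Fos, Egr2, Dusp1, Fosb, Egr1 and Nr4a1 were not called (adjusted p from 0.13 for Egr2 to 0.71 for Npas4), whereas the same-slide repeats of animal 3 gave -2.51 and -2.63 for Fos.

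Genes of other cell types were read to see what else differed between the dissected tissues. Choroid plexus, the epithelium that secretes cerebrospinal fluid and adjoins the hippocampus, had the highest median of the lists for other cells. Of 8 of its genes tested, 6 were higher in hippocampus and 0 in cortex, with a median of 2.28 (1.44 with normexp), and the animals' own medians were 3.82, 2.12, 2.00 and 1.38. Ttr, transthyretin, was at 8.98, 6.97, 7.12 and 7.33 in hippocampus and 5.44, 5.03, 5.14 and 5.84 in cortex (2.24 ± 0.35, limma adjusted p = 0.0135), with animal 1 highest. Calml4 (3.63), Otx2 (3.30), Clic6 (at least 2.46-fold), Folr1 (2.32) and Sostdc1 (2.15) went with it. The summed level of the list was 7.27 to 9.12 in hippocampus and 5.42 to 6.11 in cortex, with Ttr detected in every sample and Kl and Prlr in none. With slide as a term Ttr turned to -0.81 and Sostdc1 to -1.09, Otx2, Clic6 and Folr1 were not called, and Calml4 kept its call (3.23). On the same-slide repeats of animal 3 Ttr differed by 2.02 and 2.01. Ependymal genes, of the ciliated lining of the ventricles, were higher in hippocampus for 4 of 7 (Ak7, 2.62, with 1 of 4 cortex signals well above background, Foxj1, 1.57, Mlf1, 1.56, and Dynlrb2, 1.55, of which Ak7 kept its call with slide as a term), with a median of 1.56. Their own medians in animals 1 to 4 were 2.36, 2.35, 1.18 and 0.33, and the summed level of the list, 6.29 to 6.80 in hippocampus, was 5.61, 5.45, 6.40 and 6.29 in cortex, so that the tissues overlapped. In animals 1 and 2 the regions also differed in scan day and scanner. With the 75th percentile or quantile scaling 2 of the 7 were called. The part of either tissue in the other differences, such as that of Sostdc1 among the CA2 markers, was not tested.

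Oligodendrocyte and myelin genes were higher in hippocampus for 8 of 19 tested, among them Cnp (1.08), Sox10 (0.89), Mog (0.86), Mobp (0.77), Ermn (0.75) and Opalin (0.72), and 1, Cspg4, was higher in cortex (-0.36). Over all genes the shares were 15.3% and 11.1%. The median was 0.64, but Mbp, myelin basic protein, was not called (-0.40, limma adjusted p = 0.078, and 0.16 on 1 same-slide repeat), and the summed level of the list, 11.80 to 12.14 in hippocampus and 11.55 to 11.99 in cortex, overlapped. With slide as a term none of these genes was called, while the same-slide repeats of animal 3 gave 1.01 and 0.95 for Cnp and 0.60 and 0.73 for Sox10. Astrocyte genes were called in 4 of 20, with Gfap, the intermediate filament of astrocytes, higher in hippocampus and Itih3 (-0.95), Aldoc (-0.49) and Slc6a11 (-0.41, lost with slide as a term, adjusted p = 0.36) in cortex, and their median of -0.02 changed sign with scaling. Gfap was at 5.13, 5.25, 5.26 and 4.50 in hippocampus and 3.33, 2.58, 3.48 and 2.83 in cortex (1.98 ± 0.20, limma adjusted p = 0.00452). Its groups did not overlap, while Aqp4 (0.04), Slc1a2 (-0.16) and Gja1 (0.25), other genes of astrocytes, were not called.

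Microglia genes were called about as often as genes in general, with 3 of 17 higher in hippocampus, beside 15.3% of all genes, and a median of 0.03. The 3 were Csf1r (0.61), Tmem119 (0.53) and Itgam (0.52). None of the 3 was called with slide as a term, where Itgam was at -0.09. Endothelial and mural genes were higher in cortex for 3 of 19, near the 11.1% of all genes, with a median of -0.14. They were Abcc9 (-0.84), Pecam1 (-0.62) and Tek (-0.52), of which Pecam1 kept its call with slide as a term. Cldn5 was not called (-0.01). Meningeal genes were called once in each direction, Lum (0.66) and Col3a1 (-1.05), of 14, and neither with slide as a term. Their summed level was 10.39 in the cortex of animal 3 and between 8.51 and 9.09 in the other 7 samples, so that 1 cortex sample stood apart. Of 7 blood genes none was called. Genes of neighbouring regions gave 2 calls toward the hippocampus (Zic1, 1.32, and Zic2, 0.67) and 1 toward the cortex (Ramp3, -0.82) among 6 of thalamus and habenula. Of the striatum genes, Drd1 (-0.56), Drd2 (-0.19), Adora2a (0.21) and Ppp1r1b (-0.05) were not called. Zic1, Zic2 and Ramp3 lost their calls with slide as a term, and Zic1 turned to -0.31.

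**Figure D4:**
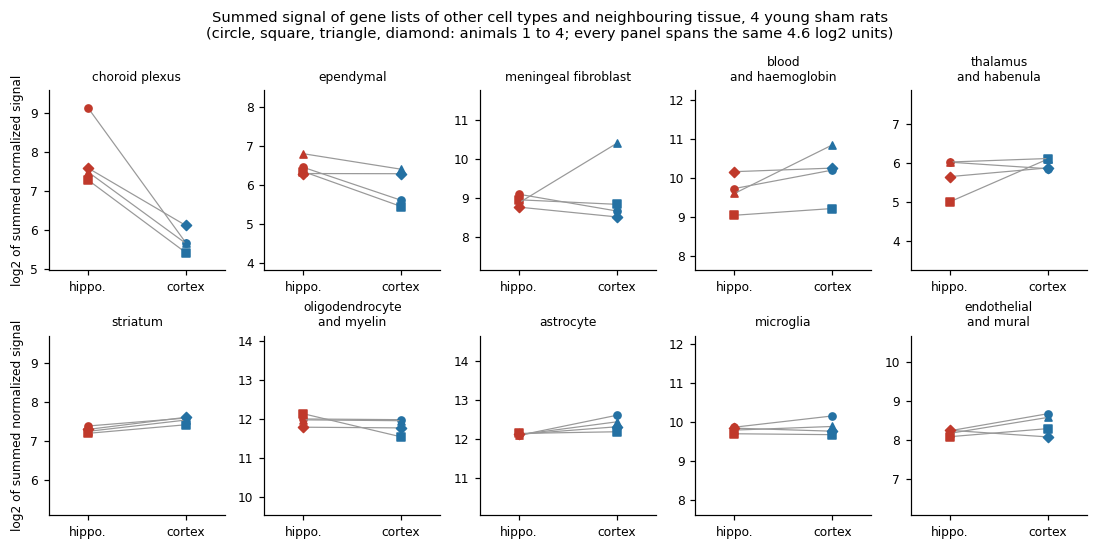
Summed signal (log2) of the genes of 10 lists for glia, vessels, meninges, ventricle lining and neighbouring regions, in each of the 8 samples, with the animals joined. Choroid plexus lies at 7.27 to 9.12 in hippocampus and 5.42 to 6.11 in cortex, and the meningeal sum is high (10.39) in the cortex of animal 3.

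The same contrast was read in other animals of the series, whose regions were laid out over the same slides, so that slide and region were entangled there as well. In 4 young rats given intermittent theta burst stimulation, 99.1% of the genes higher in hippocampus and 99.0% of those higher in cortex had the same sign, beside 79.6% of genes that were not called. In 8 aged sham rats the shares were 95.1% and 98.0%, beside 68.1%. The median difference of the genes higher in hippocampus was 0.75 in the young sham rats that chose them, 0.65 in the stimulated and 0.51 in the aged animals. For genes higher in cortex it was -0.69, -0.59 and -0.56. The genes were chosen on the young sham values, and the part of that choice, of age and of stimulation in the smaller medians was not tested.

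How many probes had a region difference that itself differed between young and aged rats depended on the slide term. Between young sham and stimulated young rats, 0 of 29188 probes passed an adjusted p under 0.05 in limma (799 at an unadjusted p under 0.05, 2.74%). Between young and aged sham rats 2 probes did (0.00685%, with 2037 or 6.98% at the unadjusted threshold), and neither carries a gene name. With slide as a term over 48 arrays 907 were called between young and aged sham rats, among them 1 of these 2, and 0 between sham and stimulated young rats (1851 at an unadjusted p under 0.05). Klk8 differed between regions by 6.97 ± 0.38 (SD, n = 4) in stimulated young rats and by 7.43 ± 0.99 (SD, n = 8) in aged sham rats. Ntf3 had the smallest p among the named genes, with 4.70 in young and 3.53 in aged sham rats, and its limma adjusted p was 0.578. Neurod6 was at 2.37 in young and 1.90 in aged sham rats (limma adjusted p = 0.688). A p above the threshold does not show that the region differences were alike.

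**Figure D5:**
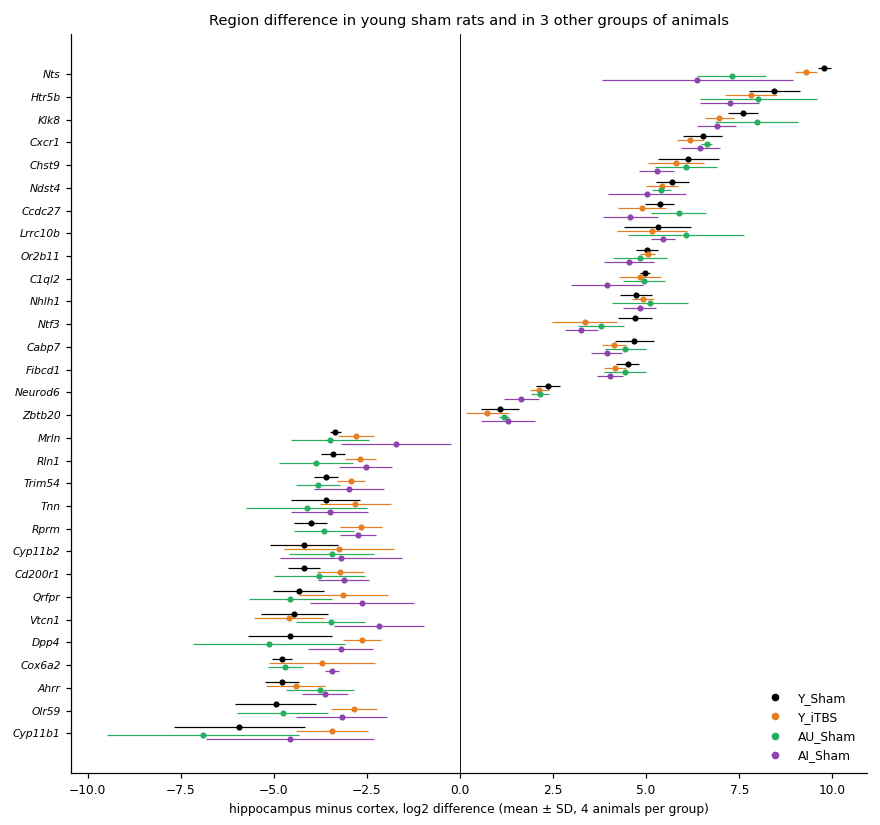
Hippocampus minus cortex difference (log2, mean ± SD over 4 animals a group) of 30 named genes in young sham, young stimulated, aged unimpaired sham and aged impaired sham rats. The mean has the same sign in all 4 groups for each of the 30 genes drawn, and values of genes not above background in one region use the measured signals, not bounds.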

How the data were processed

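RNA of each tissue was hybridised in 1 colour to Agilent rat arrays, and each scanner file gave the deposited intensity (processed signal) of every spot, background-subtracted by the authors' Feature Extraction run. The authors also deposited a table of z-scores, a score per probe and array computed from the log signal minus the array mean over its SD, which was used as an alternative. Here control and flagged spots were dropped, spots of a probe were averaged, and log2 of the deposited signal was z-scored per array and multiplied by the mean SD (4.09) to return to log2 units. limma 3.58.1 in R 4.3.3 was fitted to the 8 first arrays with animal as a block. The labels give the same animal for arrays of the same number, and own-number deviations correlated at 0.237, 0.320, 0.341 and 0.110, above any other pairing.

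Probes needed to be well above background on 4 of the 8 arrays. Genes were named through curated accessions and 15723 had 1 chosen probe, the brightest on average. Named are the 3 markers, the 10 called genes with the largest difference per direction, the 5 largest bounds per direction, and, in each of 39 lists, up to 4 called members per direction and the first member. Other members of the lists are given with them, chosen after their values were seen. Some genes that the rule names are not reported here. The members and lists were chosen with earlier results of these data known. The region difference was compared between groups on within-animal differences of all 24 animals. The number of arrays limits the precision. On simulated data for the 8-array comparison, 0% of probes changed by 0.5, 34% of those changed by 1 and 76% of those changed by 2 (log2) were recovered. Far fewer probes were changed there than were called in the data. The adjusted threshold was therefore stricter there, and these shares do not measure recovery in the data. The simulated data took their spread from the real arrays and were fitted with limma in the same run. Alternatives covered scaling, background, filters, the pairing, slide and scan batches, repeats, the study's selection rule and each animal left out. The repeat arrays entered only alternatives, and 1 array with no group was not analysed here.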

Additional observations from a re-analysis of the deposited data

Results flagged for a closer look

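Of 255 items checked (216 genes and 39 lists), 20 had 1 animal whose difference stood apart from the other 3, and chance alone marks about 1 in 20. Animal 4 stood apart for Prox1 (-0.62), Gabra2 (0.32), Kcnj6 (0.70), Epha7 (1.82), Epha3 (3.99, with a dim cortex signal of -3.60), Nr4a3 (0.34), Pecam1 (-0.10) and Tek (-0.19), and for the medians of the ionotropic glutamate receptors (-0.22) and the axon guidance genes (0.25). Among called genes, 40.9% had their smallest difference in animal 4, against 13.0% in animal 2. Animal 3 stood apart for Crh (-1.59), Lhx9 (1.41, with the one measurable cortex signal), Sfrp2 (2.53) and Lum (0.10). Animal 2 stood apart for Tcerg1l (-5.01), Ephb6 (-0.82), Wnt10a (-0.53), Gfap (2.68) and the median of the thalamus and habenula genes (-0.26), and animal 1 for Dusp1 (-0.26).

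The region difference of young sham rats differed from that of aged sham rats for 2 probes without a gene name, A_44_P1117474 (2.69, limma adjusted p = 0.000385) and A_44_P1142135 (2.14, limma adjusted p = 0.0462).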

How the results depend on the processing

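The small number of animals and the layout of slides and scans are the main limits. Of the 7627 called probes, counts ranged from 2012 to 9637 when 1 animal was left out, with 2260 without animal 1, 2012 without animal 2, 3300 without animal 3 and 9637 without animal 4. Counts were 4892 without the filter on dim probes, 4008 with slide as a fixed term over 48 arrays, 895 within the scan batch that held both regions (animals 3 and 4) and 1300 under the study's selection rule, which adds cutoffs on the z-score and the size of the difference but has a looser false discovery rate and no background filter. Without pairing by animal 7472 were called, 6418 of them in common, and 10 of 216 named genes lost their call. The other scalings, filters and blocks gave 6657 to 8584. Calls higher in hippocampus were 53.4% of all, 42.4% with the 75th percentile, 47.1% with normexp and 58.4% with the authors' z-scores. The 2 probes that differed between young and aged sham rats became 0 with probes above background on all 8 arrays, 0 with a mean z-score above 0, 0 with normexp, 1 without the filter, 907 with slide as a term, and 1 to 2 without 1 animal (1 without animal 1, 2 or 4). Between young sham and stimulated rats the count was 0 in all settings run, with 534 to 1851 at an unadjusted p under 0.05.

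Values turned sign with slide as a term for Sostdc1 (-1.09), Htr1f (0.25), Nxph3 (0.45), Adcyap1 (0.11), Itgam (-0.089), Dcn (-0.10), Ttr (-0.81) and Zic1 (-0.31), and within the scan batch for Chrm1 (-0.11) and Cldn5 (0.028). Cdh2 and Cldn5, both near 0, turned with the authors' z-scores (0.020 and 0.031), normexp (0.011 and 0.024) and quantile scaling (0.0030 and 0.027), and ranged from -0.067 to 0.021 and from -0.065 to 0.068 without 1 animal. On both same-slide repeats Prox1 (0.11 and 0.23) and Cdh2 (0.15 and 0.19) had the other sign, and on 1 of them Slc6a11 (0.15), Lum (-0.10) and Mbp (0.16). Of the small medians of lists, scaling moved those of the upper-layer markers (-0.22 to -0.036), the monoamine receptors (-0.29 to -0.098), the growth factors (0.017 to 0.089) and the microglia genes (0.027 to 0.14) by over 1.5 times. The cause of these changes was not tested. Of 216 named genes 61 lost their call with slide as a term and 139 within the scan batch.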
